A study of Homo sapiens with 16 samples.

Results

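The guanylate binding protein family (GBP1 to GBP7) was described here through the histone mark H3K27ac, acetylated lysine 27 of histone H3, which marks active promoters and enhancers. Members were the open-chromatin regions that the deposited table assigned to 1 of the 7 genes and placed within 50000 bp of its transcription start site (TSS). The rule found 22 regions among 151654 in all, and all 22 were among the 123276 regions with enough tags to be tested. GBP5 held 6 of them, GBP1, GBP2, GBP4 and GBP7 held 3 each, and GBP3 and GBP6 held 2 each. They lay within 337 kb of chromosome 1 (hg38), in the order GBP3, GBP1, GBP2, GBP7, GBP4, GBP5, GBP6. Each region is a window of 1000 bp around an ATAC-seq peak and is called here by its gene and the distance of its centre from the TSS in bp, as the table gives it, so that GBP5 -1804 lies upstream of GBP5 and GBP3 +477 lies inside GBP3. Of the 22 windows, 8 overlapped another member, so that neighbouring windows such as GBP3 +477 and GBP3 +6 counted some of the same tags.

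Guanylate binding proteins are large GTPases of the dynamin superfamily whose genes are strongly induced by interferons. They gather on vacuoles of intracellular pathogens and on bacteria in the cytosol, and in macrophages they promote caspase-4 and inflammasome activation, which end in gasdermin D pores and pyroptosis. Their promoters are classical interferon targets, reached by the factor complex ISGF3 and by IRF1 at the interferon-stimulated response element (ISRE), and they can also hold gamma-activated sites (GAS).

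THP-1, an established human acute myeloid leukemia cell line of monocytic type, was profiled in 4 groups of 2 H3K27ac ChIP-seq libraries each. WT cells (genotype label "Cas9 only", while the treatment text names a control sgRNA) and USP18-/- cells (label "Crispr USP18KO") were either left untreated or given IFNα at 1000 U/ml for 6 h. USP18 is the protease that removes ISG15 from proteins and that damps type I interferon signalling at the receptor. The labels of all 8 cultures name Cas9 or Crispr, and whether the cells still carried Cas9 is not given in the sources used here. The knockout cells were grown from sorted single cells, and the number of clones behind the libraries is not given either. Loss of USP18 and other differences between clones therefore cannot be told apart. Input libraries were not analysed here.

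The 8 libraries held between 9046141 and 12935453.5 tags in the regions of the table, and values below are given as CPM, the usual count-per-million scale, with TMM scaling, one per library, with replicate 1 first. The precision of a window follows from its tags, and at 1 CPM a library contributed about 10. Replicates differed by more than sampling noise in every group (chi-square per degree of freedom 1.36 to 1.76), so no library was a copy of another. The myeloid identity of the cells was visible in the windows nearest to SPI1, the gene of PU.1, at 63.9 to 129 CPM. Windows were found for all 9 myeloid markers looked up, with CSF1R (1.43 to 3.24 CPM) and MEIS1 (0.307 to 1.34 CPM) the lowest. Their summed level was 208.8 to 218.5 CPM in the 4 WT libraries, 248.1 and 259.7 CPM in untreated and 240.7 and 240.9 CPM in IFNα-treated USP18-/- cells. Of the 8 markers tested, some moved between the groups compared below. MPO -1012 held 48.4 to 56.1 CPM in the WT libraries, 16.2 and 18.2 CPM in untreated and 4.73 and 3.80 CPM in IFNα-treated USP18-/- cells, so it was lower in the knockout (log2 difference -1.60 ± 0.12 untreated and -3.62 ± 0.15 with IFNα) and fell with IFNα there (-2.00 ± 0.17). LYZ -22 fell with IFNα in USP18-/- cells (-1.40 ± 0.19), and CD14 +258 was higher in USP18-/- than in WT cells with IFNα (1.26 ± 0.23). The part of these changes in the GBP results was not tested. Of the markers of other cells, GATA1 and EPCAM had no window in the table, the nearest windows of CD3E (T cells) and KRT8 (epithelium) lay between 0.351 and 1.42 CPM, and those of CD79A and COL1A1 between 1.96 and 7.42 CPM. At the USP18 promoter (USP18 +111) the mark ranged from 7.54 to 48.6 CPM, which does not check the knockout, since acetylation of a promoter does not report an edit of the gene. A change is called here where edgeR's quasi-likelihood test gave an adjusted p (Benjamini-Hochberg over all tested regions) under 0.05 and the change was over 2-fold.

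The DNA under the windows is shown first, because the response of the mark is read against it below. GBP5 -1804, the most strongly acetylated window of the family after IFNα in USP18-/- cells, is given by its central 200 bases, and GBP3 +6, GBP1 +1 and GBP4 -4 at the start sites, with GBP4 -7639 upstream, by 30 bases around the ISRE core. All are written on the strand of the gene, 5′ to 3′, with matches to the ISRE core (GAAANNGAAA on either strand) or GAS (TTCNNNGAA) in capitals.
GBP5 -1804, chr1:89274565-89274764, minus strand, 2 GAS matches: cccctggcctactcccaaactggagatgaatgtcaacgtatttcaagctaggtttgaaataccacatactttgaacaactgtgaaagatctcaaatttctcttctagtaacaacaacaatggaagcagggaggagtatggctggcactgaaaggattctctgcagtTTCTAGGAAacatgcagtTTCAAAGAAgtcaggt
GBP3 +6, chr1:89022845-89022874, minus strand: aaagaagtacTTTCAGTTTCattaggctct
GBP1 +1, chr1:89065316-89065345, minus strand: aacgaagtacTTTCAGTTTCatattactct
GBP4 -4, chr1:89198927-89198956, minus strand: gtgcatgtccTTTCAATTTCggttctcaca
GBP4 -7639, chr1:89206567-89206596, minus strand: cggagagagaGAAAGAGAAAggggaagtgc
The GBP3 and GBP1 stretches held the same 10 letters at the core, TTTCAGTTTC, as the minus strand of the motif. In GBP5 -1804 an ISRE match lay outside the bases printed, at -189 bp from the window's centre (chr1:89274461-89274490, tcctttttggTTTCTATTTCctacagagaa). By the annotation, GBP3 +6 and GBP1 +1 were centred in the untranslated part of the first exon, GBP4 -4 in an exon of an unnamed overlapping gene, GBP2 -2846 in an intron of the longest GBP2 transcript (intergenic in the deposited table), and GBP5 -1804 between genes.

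An ISRE core was found in 9 of the 22 windows (40.9%), against 17.2% of all regions. In the central 200 bp it was found in 6 of 22 (27.3%), against 5.43% of all regions. GAS matches occurred in 8 windows (36.4%, against 26.2% of all) and in the centre of 4 (18.2%, against 5.47%). AP-1 matches (TGANTCA) were in 12 windows (54.5%, against 31.1%) and in the centre of 3 (13.6%, against 12.9%), whereas the PU.1 motif searched (GAGGAAGT) was in 0 of 22, against 11.0% of all. A kappa B site, searched by the name NF-kB, was in 2 windows (9.09%, against 16.2%) and in the centre of 1 (4.55%, against 3.71%), and the 2 windows, GBP4 +369 and GBP4 -4, share that single site. Both strands were searched and no matches of different motifs overlapped in the members. Since some windows overlap, GBP3 +477 and GBP3 +6 share one of these ISRE cores and GBP4 +369 and GBP4 -4 another. Each of these pairs also shares a GAS match. The GBP3 pair shares an AP-1 match, as do GBP5 +10516 and GBP5 +10030, so the window counts include shared sites. The RefSeq promoter table (GRCh38.p14) matched 5 of the 7 genes, GBP1, GBP3, GBP4, GBP6 and GBP7. In the 250 bp before the RefSeq start, an ISRE core was found only in GBP1 among these 5, at -127 to -118. Of all 35116 promoters, 3.02% held one. The stretch ended at chr1:89022867 for GBP3 and at chr1:89198943 for GBP4. The core printed above for GBP3 +6 (chr1:89022855-89022864) lay just past that end. That of GBP4 -4 (chr1:89198937-89198946) lay across it, so neither was counted here. The GBP3 promoter held a GAS match at -15 to -7.

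The first comparison asks what IFNα does to the mark in cells that have USP18. In WT cells 1 of the 22 windows rose and 0 fell, while 0.344% of all tested regions rose and 0.0389% fell. The median log2 fold change over the 22 windows was 0.14, beside -0.01 over all regions. At an unadjusted p under 0.05 edgeR gave 2 windows higher and 1 lower, and DESeq2, which gave an adjusted p for 8 of the 22, called 1 higher and 0 lower.

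The window that rose was GBP5 -1804. GBP5 is known to promote assembly of the NLRP3 inflammasome and to hinder furin-dependent processing of viral envelope proteins. In untreated WT cells GBP5 -1804 held 4.09 and 3.41 CPM, and with IFNα 9.61 and 9.85 CPM. The log2 fold change was 1.38 ± 0.20 (SE, n = 2 against 2 libraries, edgeR adjusted p = 1.2e-06). GBP2 -2846 came closest after it, from 6.14 and 4.49 CPM to 9.03 and 8.33 CPM, a log2 fold change of 0.72 ± 0.20 with an edgeR adjusted p of 0.057. At the start sites themselves, the values with and without IFNα lay close together in WT cells. GBP3 +6 held 12.7 and 10.1 CPM untreated and 10.2 and 11.3 CPM with IFNα, and GBP2 +1 held 3.17 and 3.14 CPM untreated and 2.94 and 2.44 CPM with IFNα. GBP1 +1 stayed at or under 1.08 CPM in all 4 WT libraries.

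The second comparison puts the same question to cells without USP18, and here 13 of the 22 windows rose and 0 fell, against 7.11% of all tested regions that rose and 4.42% that fell. The median log2 fold change over the 22 windows was 1.66, beside -0.01 over all regions, and 21 of 22 were above 0. At an unadjusted p under 0.05 edgeR gave 16 windows higher and 0 lower. DESeq2 called 11 higher and 0 lower among the 17 windows for which it gave an adjusted p. Windows of GBP1, GBP2, GBP3, GBP4, GBP5 and GBP6 were among the 13, and of GBP7 none.

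**Figure D1:**
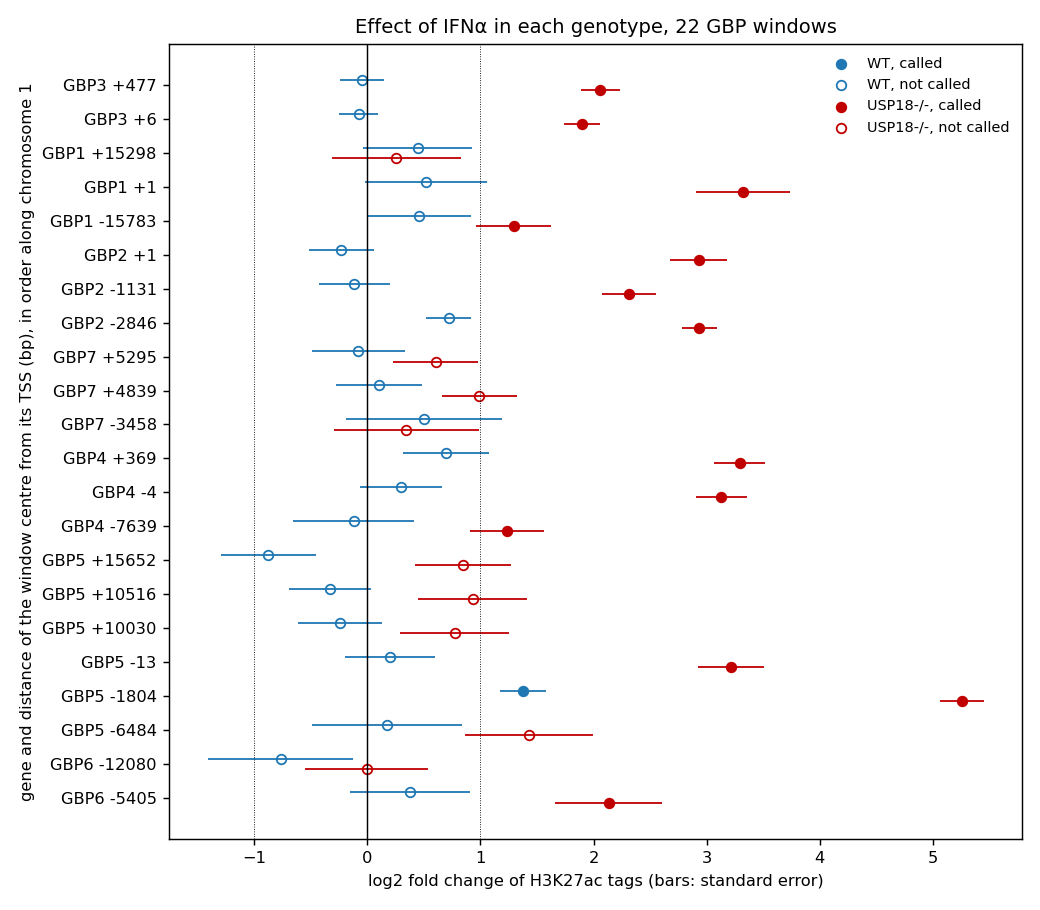
Log2 fold change of H3K27ac with IFNα in WT (blue) and USP18-/- (red) cells for the 22 GBP windows, listed in order along chromosome 1; bars are standard errors, filled points are called and dotted lines mark a 2-fold change. The filled red points are the 13 windows that rose in USP18-/- cells, and the single filled blue point is GBP5 -1804.

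GBP5 -1804 changed most. Untreated USP18-/- cells held 1.38 and 1.34 CPM there, and IFNα-treated USP18-/- cells 52.1 and 52.6 CPM, the highest values of any GBP window. The log2 fold change was 5.26 ± 0.19 (38.2-fold, edgeR adjusted p = 3.2e-38), which placed the window 41st of 123276 regions in order of log2 fold change. The GBP5 start site itself (GBP5 -13) rose from 0.777 and 1.34 CPM to 8.42 and 11.2 CPM, a log2 fold change of 3.22 ± 0.29 (edgeR adjusted p = 1.2e-15). Of the 32-base stretches in that window, 58.0% have a second copy elsewhere in hg38, so that part of its tags may not be placed uniquely, whereas in GBP5 -1804 the share was 8.66%. The other 4 GBP5 windows, at -6484, +10030, +10516 and +15652, held at most 1.85 CPM in IFNα-treated USP18-/- cells and were not called. One of them, GBP5 +10030, was called at 2.77 on the log2 scale without replicate 1 of untreated USP18-/- cells, which left 0.191 CPM as the only untreated value, against 0.77 ± 0.48 with it.

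GBP2, like GBP1 and GBP5, carries a lipid anchor that brings it to membranes, and its 3 windows all rose. GBP2 -2846 went from 5.70 and 5.53 CPM to 44.7 and 41.3 CPM, a log2 fold change of 2.93 ± 0.16 (7.65-fold, edgeR adjusted p = 2.3e-28). The start-site window GBP2 +1 went from 1.73 and 1.34 CPM to 12.3 and 11.3 CPM with the same log2 fold change, 2.93 ± 0.25 (edgeR adjusted p = 8.5e-17). Per window of equal length, the upstream window therefore held more of the mark than the start site in every one of the 8 libraries. GBP2 -1131, between them, rose by 2.31 ± 0.24 on the log2 scale, with 52.5% of its 32-base stretches repeated in the genome.

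GBP4 is one of the proteins recruited to bacterial surfaces by GBP1 and takes part in caspase-4 activation there. In untreated USP18-/- cells GBP4 -4 held 3.28 and 1.53 CPM, and with IFNα 22.8 and 20.1 CPM. The log2 fold change was 3.13 ± 0.23 (8.76-fold, edgeR adjusted p = 8.3e-21), and GBP4 +369, which overlaps it, rose by 3.29 ± 0.23. Farther upstream, GBP4 -7639 rose from 1.64 and 1.72 CPM to 3.86 and 4.08 CPM (log2 fold change 1.24 ± 0.33, edgeR adjusted p = 0.0022), and DESeq2 did not call it (adjusted p = 0.068). None of the 3 GBP4 windows was called in WT cells, where GBP4 -4 held 2.66 and 1.08 CPM untreated and 1.96 and 2.54 CPM with IFNα.

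GBP3, a further partner in the GBP coat on bacteria, had the highest start-site acetylation of the family before treatment. GBP3 +6 rose in USP18-/- cells from 7.94 and 6.49 CPM to 27.7 and 26.2 CPM, a log2 fold change of 1.90 ± 0.16 (3.72-fold, edgeR adjusted p = 1.5e-17). Its overlapping neighbour GBP3 +477 rose by 2.06 ± 0.17 on the log2 scale. Among the start-site windows of GBP1 to GBP5, GBP3 thus reached the highest level and had the smallest fold change.

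GBP1, the member that first binds lipopolysaccharide on bacteria in the cytosol, had the lowest start-site level. GBP1 +1 held 0.518 and 0.382 CPM in untreated USP18-/- cells and 5.00 and 4.26 CPM with IFNα. The log2 fold change was 3.32 ± 0.41 (10.0-fold, edgeR adjusted p = 2.1e-10), from a base of few tags. In this window 20.5% of 32-base stretches were repeated in the genome. GBP1 -15783 rose from 1.90 and 1.14 CPM to 3.68 and 3.89 CPM (log2 fold change 1.29 ± 0.33, edgeR adjusted p = 0.0014), and without replicate 2 of the untreated USP18-/- group the value was 0.99 and no longer called. GBP1 +15298 held 0.701 and 0.926 CPM with IFNα and was not called.

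For GBP6 and GBP7, whose functions in human cells are less well described, the table had no window at the start site. GBP6 -5405 rose from 0.518 and 0.572 CPM to 2.81 and 2.04 CPM, a log2 fold change of 2.13 ± 0.47 (edgeR adjusted p = 1.9e-04) at a low tag count, and GBP6 -12080 stayed within 0.406 to 1.08 CPM over all 8 libraries. GBP7 +4839, in an intron, held 1.90 and 1.34 CPM untreated and 2.98 and 3.52 CPM with IFNα. Its log2 fold change of 0.99 ± 0.33 passed the test (edgeR adjusted p = 0.018) and was just under 2-fold. The other 2 GBP7 windows had log2 fold changes of 0.61 ± 0.37 and 0.35 ± 0.64.

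**Figure D2:**
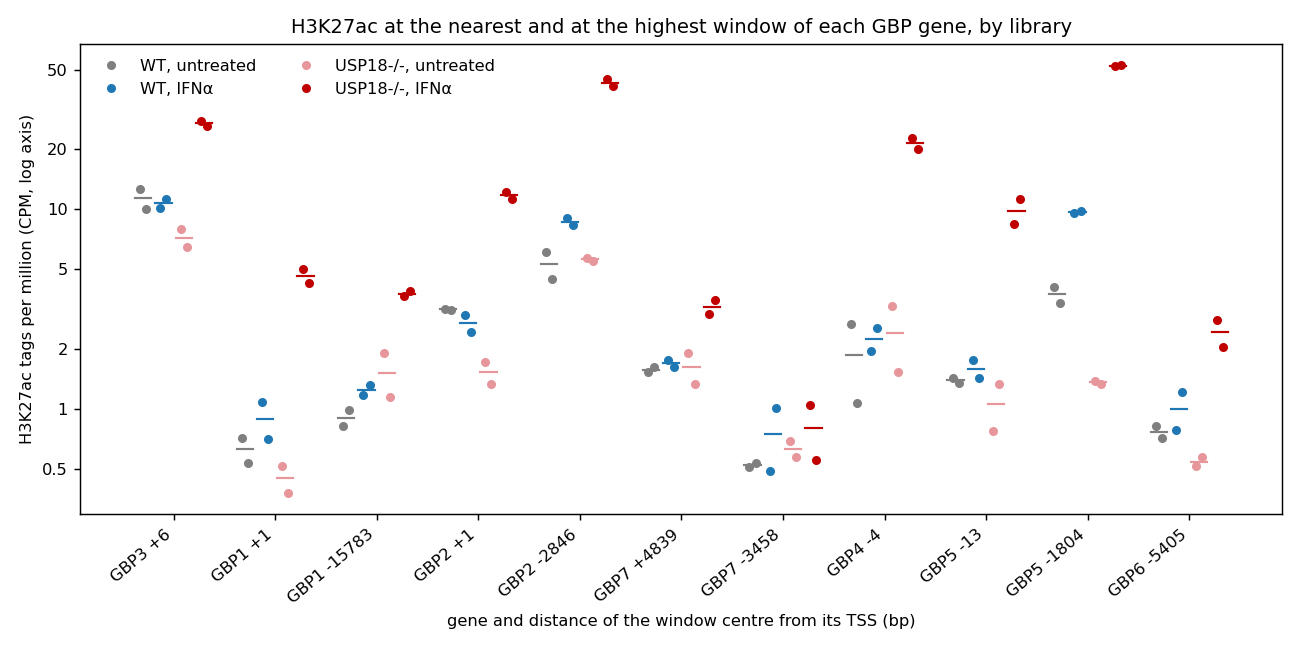
H3K27ac in each of the 8 libraries (points, CPM on a log axis) and the group mean (lines) at the window nearest to the TSS and at the most acetylated window of each GBP gene; where both are one window it is drawn once. The IFNα-treated USP18-/- libraries (dark red) stand above all others at every window drawn except GBP7 -3458, from 2.04 CPM at GBP6 -5405 to 52.6 CPM at GBP5 -1804.

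Levels after IFNα in USP18-/- cells ordered the start-site windows as GBP3 +6 (27.7 and 26.2 CPM), GBP4 -4 (mean 21.5 CPM), GBP2 +1 (11.8), GBP5 -13 (9.81) and GBP1 +1 (4.63). Both libraries gave this order. GBP2 +1 and GBP5 -13 came closest to each other in replicate 2, at 11.3 and 11.2 CPM, and their means differed by less than the 2 libraries of GBP5 -13 did, so these neighbours in the order do not differ beyond their spread. All windows have one length, so these levels can be set side by side, apart from the repeated sequence in GBP5 -13 and GBP1 +1. An ISRE core lay in the central 200 bp of 6 windows, GBP3 +477, GBP3 +6, GBP1 +1, GBP2 -2846, GBP4 -4 and GBP4 -7639. All 6 were among the 13 that rose, with log2 fold changes from 1.24 to 3.32, while 7.11% of all tested regions rose. GBP3 +477 and GBP3 +6 overlap, and 26.4% of the 32-base stretches of GBP4 -7639 are repeated in the genome. The share that rose among all regions with a central ISRE core was not computed, so a link between motif and response was not tested. GBP5 -1804, with the largest change, held its 2 GAS matches at -89 and -71 bp from the centre, counted along the chromosome. GBP1 -15783, GBP2 +1, GBP2 -1131, GBP4 +369, GBP5 -13 and GBP6 -5405 rose without an ISRE core or a GAS match in their central 200 bp.

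Loss of USP18 was next compared in untreated cells. Here 4 of the 22 windows were lower in USP18-/- than in WT cells and 0 were higher, against 10.8% of all tested regions lower and 5.69% higher. The median log2 difference of the members was -0.28, beside -0.02 over all regions. edgeR gave 7 windows lower and 1 higher at an unadjusted p under 0.05, and DESeq2 called 4 lower and 0 higher among 18 with an adjusted p.

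The 4 lower windows were GBP5 -1804, GBP5 +10516, GBP5 +10030 and GBP2 +1. GBP5 -1804 held 4.09 and 3.41 CPM in WT cells and 1.38 and 1.34 CPM in USP18-/- cells (log2 difference -1.45 ± 0.30, edgeR adjusted p = 4.3e-05), so the window with the largest response to IFNα started lower in the knockout. GBP5 +10516 and GBP5 +10030, which overlap near the 3′ end of the gene, differed by -1.84 ± 0.43 and -1.63 ± 0.44 on the log2 scale. GBP5 +10030 rested on 1.38 and 0.191 CPM in the knockout, and without the second of these libraries the difference was -0.87 and not called. GBP2 +1 held 3.17 and 3.14 CPM in WT and 1.73 and 1.34 CPM in USP18-/- cells (log2 difference -1.03 ± 0.32, edgeR adjusted p = 0.0074), and without the second knockout library it was -0.86 and not called. GBP3 +6 was lower by -0.64 ± 0.18 (edgeR adjusted p = 0.0025), which is under 2-fold. At GBP4 no window passed the test, with 0.42 ± 0.35 at GBP4 -4 and 1.03 ± 0.44 at GBP4 -7639 (edgeR adjusted p = 0.39 and 0.064). Single libraries decided these values, since GBP4 -4 was at -0.25 without replicate 1 of untreated USP18-/- cells and at -0.13 without replicate 2 of untreated WT cells, and GBP4 -7639 was called higher, at 1.62, without replicate 1 of untreated WT cells.

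With IFNα in both genotypes, 13 windows were higher in USP18-/- cells and 0 were lower, against 11.3% of all tested regions higher and 13.5% lower. The median log2 difference was 1.45, beside 0.00 over all regions, with 15 higher and 0 lower at an unadjusted edgeR p under 0.05, and DESeq2 called 12 higher and 0 lower of 19. GBP5 -1804 held 9.61 and 9.85 CPM in treated WT cells and 52.1 and 52.6 CPM in treated USP18-/- cells, a log2 difference of 2.43 ± 0.14 (edgeR adjusted p = 2.5e-26). The start sites of GBP4 (GBP4 -4, 3.25 ± 0.23), GBP5 (GBP5 -13, 2.61 ± 0.28), GBP1 (GBP1 +1, 2.35 ± 0.37), GBP2 (GBP2 +1, 2.13 ± 0.23) and GBP3 (GBP3 +6, 1.33 ± 0.15) were all higher. GBP6 -5405 was higher by 1.27 ± 0.43 (edgeR adjusted p = 0.012), a call that ended without replicate 1 of either group. Comparisons with and without IFNα share libraries with those above, so their values are given side by side and not as separate evidence.

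**Figure D3:**
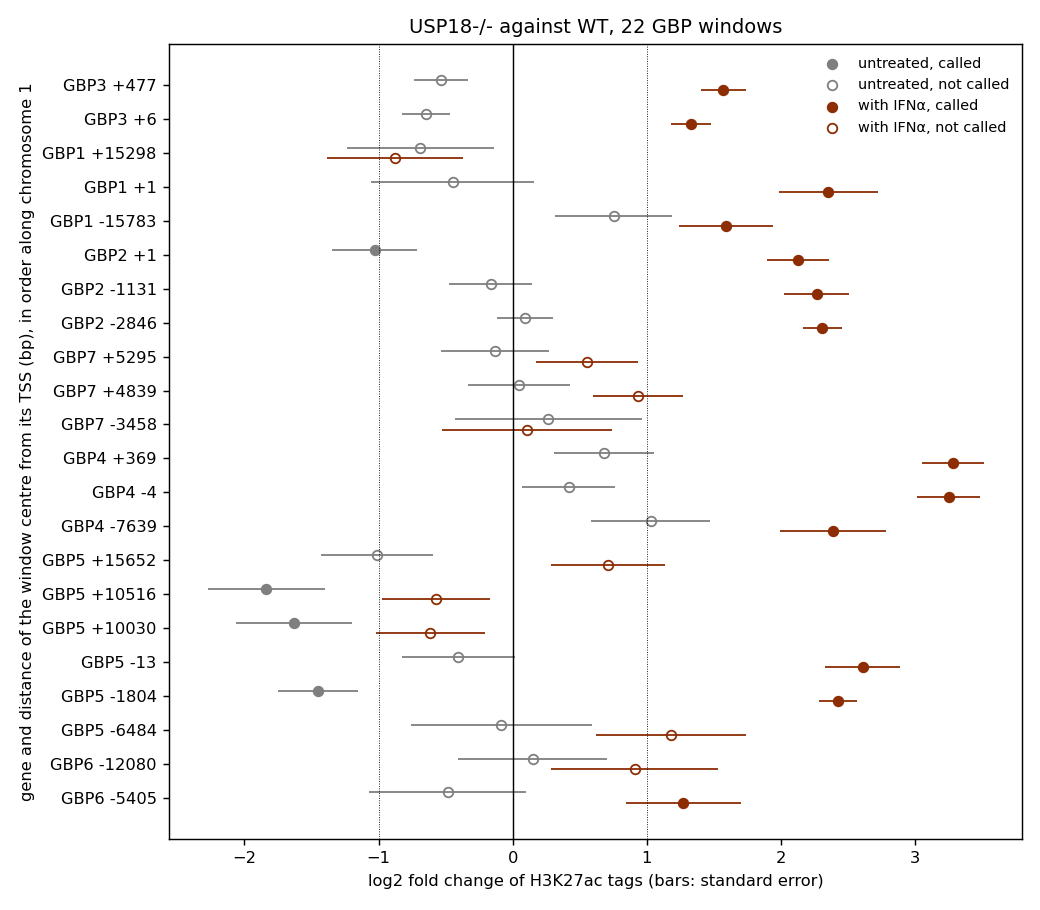
Log2 difference of H3K27ac between USP18-/- and WT cells, untreated (grey) and with IFNα (brown), for the 22 GBP windows in order along chromosome 1; bars are standard errors, filled points are called and dotted lines mark a 2-fold change. Untreated values reach from -1.84 to 1.03 and those with IFNα from -0.88 to 3.28, with the 4 filled grey points left of 0 and the 13 filled brown points right of it.

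Whether IFNα acted differently on the 2 genotypes was tested by the difference of the IFN effects in one fit. The effect was larger in USP18-/- cells at 11 of 22 windows and smaller at 0, against 4.60% of all tested regions larger and 2.56% smaller. The median difference was 1.74 on the log2 scale, beside 0.00 over all regions, edgeR gave 14 larger and 0 smaller at an unadjusted p under 0.05, and DESeq2 called 9 larger and 0 smaller of 10. At GBP5 -1804, where IFNα raised the mark in both genotypes, the effects differed by 3.88 ± 0.33 (14.7-fold, edgeR adjusted p = 4.6e-16). At the start sites, the differences were 3.16 ± 0.40 for GBP2 +1, 3.01 ± 0.52 for GBP5 -13, 2.83 ± 0.45 for GBP4 -4, 2.80 ± 0.73 for GBP1 +1 and 1.97 ± 0.23 for GBP3 +6. Without replicate 1 of untreated WT cells GBP1 +1 was at 2.60 and not called (edgeR adjusted p = 0.060). GBP1 -15783, GBP4 -7639 and GBP6 -5405 had risen in USP18-/- cells, but their differences of 0.84 ± 0.58, 1.36 ± 0.63 and 1.76 ± 0.73 did not pass the test (edgeR adjusted p = 0.44, 0.18 and 0.12). GBP5 +15652 passed (1.72 ± 0.60, edgeR adjusted p = 0.044) on values of at most 2.66 CPM, but the call was lost under 10 alternatives. Without filtering, by tag directory totals and by the sum of counts the edgeR adjusted p was 0.054, 0.058 and 0.067. It was also lost on leaving out any library but replicate 2 of untreated WT cells, with edgeR adjusted p from 0.080 to 0.34 and the lowest value, 1.23, without replicate 1 of untreated WT cells.

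Windows of the genes on either side were counted in the same way. Of 52 tested windows within 50000 bp of 8 flanking genes, 3 rose with IFNα in USP18-/- cells and 0 fell, against 7.11% and 4.42% of all tested regions, the median log2 value was 0.11, and DESeq2 gave the same counts among 43 with an adjusted p. In WT cells 0 of 52 passed in either direction by edgeR or DESeq2 (median -0.07, with 3 higher and 3 lower at an unadjusted edgeR p under 0.05). Between untreated genotypes 5 were lower and 0 higher in USP18-/- cells, against 10.8% and 5.69% of all tested regions, with 16 lower and 7 higher at an unadjusted edgeR p under 0.05. A window inside KYAT3 (KYAT3 +8747, which the table annotates as 5′ UTR of RBMXL1), the nearest flanking gene before GBP3, held 2.07 and 2.58 CPM untreated and 29.5 and 25.6 CPM with IFNα in USP18-/- cells (log2 fold change 3.57 ± 0.21, edgeR adjusted p = 7.4e-26). On the far side the start of GBP1P1, a GBP1 pseudogene, went from 1.38 and 1.81 CPM to 17.4 and 15.9 CPM (3.38 ± 0.24). In that window 23.4% of the 32-base stretches are repeated, so tags of GBP1 and its copy may be mixed. The third was LRRC8B -5945, at 1.43 ± 0.19. At the start sites of KYAT3 (KYAT3 -17), LRRC8B (LRRC8B -31), LRRC8C (LRRC8C -45) and LRRC8D (LRRC8D -67), log2 fold changes were 0.33 ± 0.15, -0.04 ± 0.14, -0.06 ± 0.11 and 0.02 ± 0.08. GTF2B +32, the start of a general transcription factor gene, went from 18.6 and 19.2 CPM to 34.4 and 38.4 CPM, just under 2-fold (0.94 ± 0.12).

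**Figure D4:**
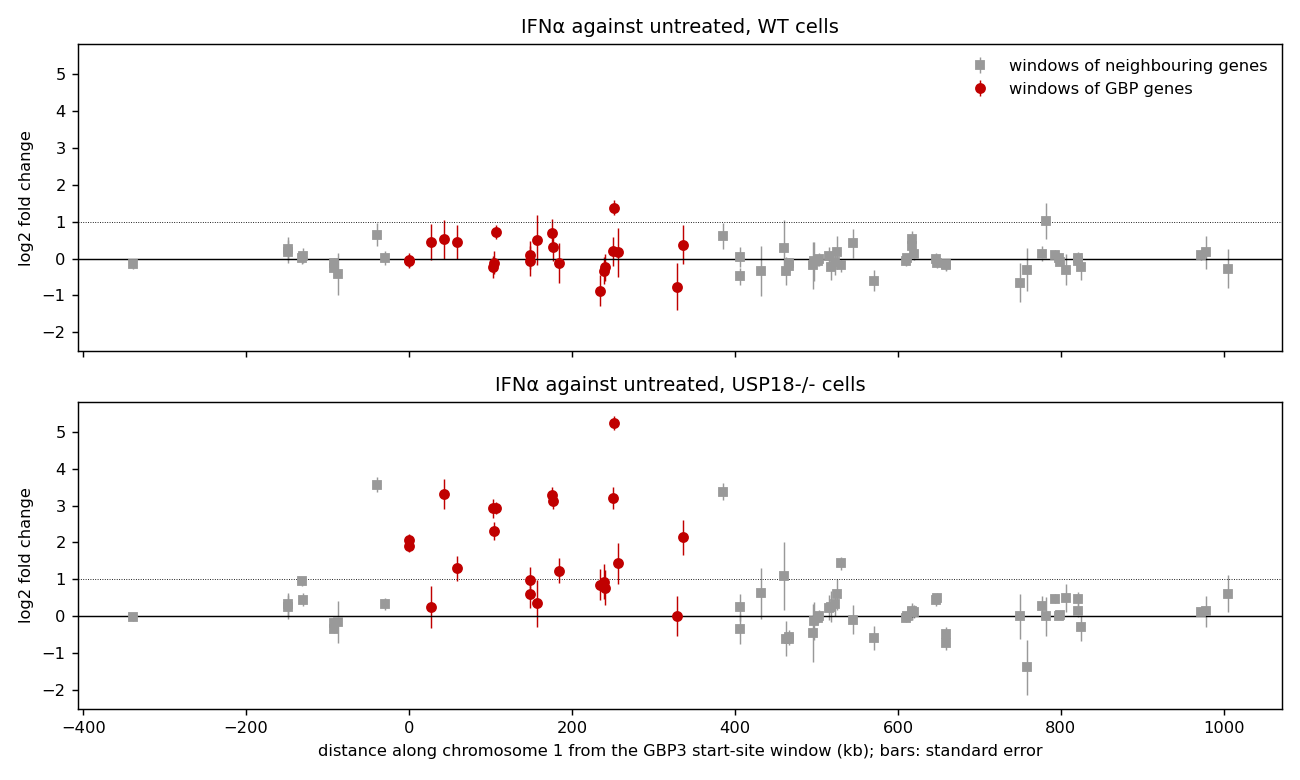
Log2 fold change of H3K27ac with IFNα against distance along chromosome 1 from the GBP3 start-site window, in WT (top) and USP18-/- cells (bottom), for the 22 GBP windows (red circles) and 52 windows of flanking genes (grey squares); bars are standard errors and the dotted line marks a 2-fold change. In USP18-/- cells the points above 2 are GBP windows from 2.06 to 5.26 and the 2 grey points of KYAT3 +8747 at 3.57 and GBP1P1 -108 at 3.38.

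Windows of genes whose factors are known to bind GBP promoters differed among themselves. IRF9 -20 and STAT2 -32 are starts of ISGF3 genes. IRF9 -20 rose in both genotypes, with log2 fold changes of 1.67 ± 0.12 in WT and 2.09 ± 0.11 in USP18-/- cells. The difference between them, 0.41 ± 0.17, did not pass the test (edgeR adjusted p = 0.10). STAT2 -32 was at 0.32 ± 0.13 in WT cells, where it did not pass, and rose by 1.52 ± 0.12 in USP18-/- cells, with a difference of 1.20 ± 0.18 (edgeR adjusted p = 2.9e-07). IRF1 -137 was at 0.23 ± 0.13 in WT, where it did not pass, and rose by 1.03 ± 0.11 in USP18-/- cells. IRF1 -6163 rose by 1.93 ± 0.11 in USP18-/- cells. In WT cells it passed the test at 0.52 ± 0.12 (edgeR adjusted p = 0.014), under 2-fold. IRF2 -101 rose by 1.35 ± 0.10 in USP18-/- cells and stood at 0.08 ± 0.12 in WT. Of IRF8, a myeloid partner of PU.1, no window rose, and IRF8 +6240 was at -0.89 ± 0.16 in USP18-/- cells (edgeR adjusted p = 4.4e-06), under 2-fold.

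Genes that act with the GBPs in pyroptosis had 33 tested windows within 10000 bp of CASP1, CASP4, CASP5, GSDMD, NLRP3, AIM2, PYCARD and PIM1. In WT cells 0 passed by edgeR or DESeq2, with 1 higher and 0 lower at an unadjusted edgeR p under 0.05. With IFNα in USP18-/- cells 10 rose and 0 fell, against 7.11% and 4.42% of all tested regions. DESeq2 gave 9 and 0, and 19 and 5 passed at an unadjusted edgeR p under 0.05. At 8 windows the effect was larger in USP18-/- than in WT cells, against 4.60% of all tested regions. The 10 included AIM2 -71, AIM2 -330 and AIM2 -631, which overlap, and CASP1 +1652 and CASP1 +2472, which also overlap. Such windows count some of the same tags. All 8 with the larger effect lay at AIM2, CASP1 or NLRP3. Between untreated genotypes, 7 were lower and 1 higher in USP18-/- cells, against 10.8% and 5.69%. The 7 were CASP4 +5883 and, all at one gene, AIM2 -8148, AIM2 -631, AIM2 -330, AIM2 -71, AIM2 +8426 and AIM2 +8699. AIM2 +8426 and AIM2 +8699 overlap too, so these counts include shared tags. The window that was higher was CASP5 -72. The start of AIM2 (AIM2 -71), a sensor of DNA in the cytosol, went from 0.604 and 0.763 CPM to 18.2 and 18.3 CPM, a log2 fold change of 4.72 ± 0.27. Before treatment it was lower in USP18-/- than in WT cells by -2.22 ± 0.38, as was GBP5 -1804. CASP4 -9, at the start of the lipopolysaccharide receptor gene, rose by 1.19 ± 0.15, and GSDMD +28, at a start of the pore former's gene, by 1.21 ± 0.11. In WT cells these 3 windows stood at 0.20 ± 0.27, 0.32 ± 0.16 and 0.33 ± 0.12. At another annotated start of GSDMD, GSDMD +244 (0.27 ± 0.19) and GSDMD +591 (0.01 ± 0.21) did not pass the test in USP18-/- cells. Upstream of it, GSDMD -4988 was at 0.91 ± 0.24 there, under 2-fold. PYCARD +8, at the start of the adaptor gene, had 0.02 ± 0.09 in USP18-/- cells, and NLRP3 -4 had -0.44 ± 0.08, under 2-fold. Other NLRP3 windows went both ways. NLRP3 -7818 (1.23 ± 0.14) and NLRP3 +1513 (1.01 ± 0.20) were among the 10 that rose, and NLRP3 -8771 was at 0.98 ± 0.13, just under 2-fold. NLRP3 -288 was at -0.57 ± 0.09 and NLRP3 -4368 at -0.53 ± 0.12, both under 2-fold. NLRP3 -81, at 0.26 ± 0.13, did not pass the test.

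The interferon-induced dynamin-like GTPases of the MX family, set beside the GBPs, passed the test in WT cells too. MX2 -46 rose from 3.27 and 4.31 CPM to a mean of 18.5 CPM in WT cells (log2 fold change 2.27 ± 0.18) and to 71.7 and 64.1 CPM in USP18-/- cells (3.93 ± 0.15), with a difference of the effects of 1.66 ± 0.26. MX1 -236 rose by 1.02 ± 0.14 in WT and by 3.10 ± 0.14 in USP18-/- cells. Among all GBP windows only GBP5 -1804, at 1.38 in WT cells, was called in both genotypes in this way.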

How the data were processed

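THP-1 cells were profiled by H3K27ac ChIP-seq. Per the study's methods and the labels, the authors aligned reads to hg38 with Bowtie2 and counted tags with HOMER in windows of 1000 bp around pooled ATAC-seq peaks. The deposited values are estimated counts of tags per window, not normalized; all were multiples of 0.5 and 52.2% were whole, and they were rounded to whole numbers (ties to even). Aligner and HOMER versions are not given in the sources used here.

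Windows that reached 10 counts in 2 or more of the 8 libraries were tested with edgeR 4.0.16 (TMM scaling, quasi-likelihood, all 4 groups in one fit, common biological coefficient of variation 0.0746), with p-values adjusted over all tested regions; a call needed an adjusted p under 0.05 and over 2-fold. Standard errors were the log2 fold change over the root of F. The fit was tested on simulated counts for IFNα in USP18-/- cells. Among 115774 regions, 138 of 191 changed 3-fold were recovered (79 of 81 with a mean count of at least 30), with 2 false calls. The simulation gave every region the same coefficient of variation and, apart from the changed regions, equal group means. Spread that differs by region and wide shifts between groups were thus not covered. Replicates are the labels' biological replicates, and p-values measure the spread between them. Motifs were searched in the hg38 sequence. Values of some listed genes and the sequence of some windows are not reported here. Named windows were the nearest to each TSS and the one with the highest mean CPM, and other members were described after their values were seen. The members and gene lists were chosen with earlier results of these data known.

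Alternatives were DESeq2, other scalings, no filter, fewer groups in the fit, a replicate block, each library left out and, chosen after seeing the data, unrounded values, tag directory totals and separate fits of proximal and distal regions.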

Additional observations from a re-analysis of the deposited data

Results flagged for a closer look

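These 11 windows drew attention because the effect of IFNα differed between the genotypes by the test of the difference itself (edgeR, adjusted over all regions). The difference, USP18-/- minus WT, was 2.10 at GBP3 +477, 1.97 at GBP3 +6, 2.80 at GBP1 +1, 3.16 at GBP2 +1, 2.43 at GBP2 -1131, 2.22 at GBP2 -2846, 2.60 at GBP4 +369, 2.83 at GBP4 -4, 1.72 at GBP5 +15652, 3.01 at GBP5 -13 and 3.88 at GBP5 -1804, all on the log2 scale. GBP2 -1131 and GBP5 -13 hold 52.5% and 58.0% repeated 32-base stretches, and GBP5 +15652 rests on few tags and lost its call under 10 alternatives, among them 7 of the 8 left-out libraries. The part of repeated sequence in these values was not tested.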

How the results depend on the processing

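In the counts of GBP windows that rose or fell, 2 alternatives and 2 left-out libraries moved a count by over 1.5 times, all of them for untreated USP18-/- against WT cells. The windows higher were 0 and became 1 when proximal and distal regions were scaled and fitted apart, and ranged from 0 to 1 over left-out libraries. The windows lower were 4, became 2 with only regions within 10000 bp of the TSS (16 windows), and ranged from 2 to 5. Leaving out 1 library gave 12 to 15 windows higher for IFNα in USP18-/- cells, 12 to 13 for USP18-/- against WT with IFNα, 9 to 11 for the difference and 1 for IFNα in WT cells.

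Of 893 values of the 11 windows named by the rule under an alternative, 864 kept direction and side of the threshold, 8 lost a call, 7 gained one and 14 changed sign, none of the 14 called. Among these, the lost calls were GBP1 -15783 (0.99) and GBP2 +1 (-0.86) without untreated USP18-/- replicate 2, GBP1 +1 for the difference without untreated WT replicate 1 (2.60, edgeR adjusted p = 0.060), and, with IFNα in both genotypes, GBP3 +6 in separate fits (0.97) and GBP6 -5405 by DESeq2 (1.28, adjusted p = 0.10), by the sum of counts (1.00) and without replicate 1 of either group (1.00 and 0.99). GBP7 +4839 gained a call for IFNα in USP18-/- cells with the 2 groups alone (1.00), separate fits (1.04), unrounded values (1.01) or without USP18-/- replicate 1 treated (1.10) or untreated (1.25), and for USP18-/- against WT with IFNα in separate fits (1.12) or without treated USP18-/- replicate 1 (1.03). Over all 22 windows 20 calls were lost and 19 gained. GBP5 +15652 lost its call of the difference under 10 alternatives, 7 of them left-out libraries, and was called lower in untreated USP18-/- cells under 4 (-1.06 to -1.41). GBP4 -7639 was lost by DESeq2 for IFNα in USP18-/- cells, and was called higher in untreated USP18-/- cells in separate fits (1.18) and without untreated WT replicate 1 (1.62). GBP5 +10030 was lost for untreated genotypes (-0.87) without untreated USP18-/- replicate 2, and gained for IFNα in USP18-/- cells (2.77) and the difference (3.01) without replicate 1. GBP5 -6484 gained a call for IFNα in USP18-/- cells with the 2 groups alone (1.44), in separate fits (1.48) and without treated WT replicate 1 (1.43), and with IFNα in separate fits (1.37).

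Where signs changed on leaving out 1 library, values ranged from -0.24 to 0.094 (GBP3 +6) and from -0.24 to 1.05 (GBP4 -4) for IFNα in WT cells. For untreated USP18-/- against WT they ranged from -0.25 to 1.17 (GBP4 -4), from -0.13 to 0.32 (GBP2 -2846) and from -0.24 to 0.27 (GBP7 +4839). For GBP7 -3458 they ranged from -0.32 to 0.46 with IFNα and from -0.59 to 0.19 for the difference. By the sum of counts, GBP2 -2846 was at -0.052 and GBP7 +4839 at -0.097 for untreated genotypes, and GBP7 -3458 at -0.17 with IFNα. By tag directory totals these were -0.00567 for GBP7 +4839 and -0.00133 for GBP7 -3458, and in separate fits GBP2 -2846 was at -0.22. The cause was not tested.

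Scaling by the sum of counts put the median of all regions at -0.14 (IFNα in USP18-/- cells), -0.16 (untreated genotypes), -0.27 (genotypes with IFNα) and -0.12 (difference). The regions called with IFNα were then 8873 higher and 24003 lower, beside 13934 and 16633, and for untreated genotypes 5008 and 16897, beside 7019 and 13321. For IFNα in USP18-/- cells they were 7478 and 7917, beside 8768 and 5444, and for the difference 4694 and 4801, beside 5670 and 3151. A replicate block from the labels' numbers gave the same counts of GBP windows, 1, 13, 4, 13 and 11. Same-numbered libraries deviated together by a correlation of 0.0019 to 0.058, so the numbers were not used as pairs. Windows near 1 CPM rest on about 10 tags per library, and standard errors there reached 0.94 on the log2 scale (GBP7 -3458, difference).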

Other observations

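Over the 3 differences of group means from untreated WT cells, on the log2(CPM + 0.5) scale, the median start-site window of 5 GBP genes stood at 0.14 in IFNα-treated WT, -0.30 in untreated USP18-/- and 2.19 in IFNα-treated USP18-/- cells. Among 14270 genes with a window within 1000 bp of the TSS, the nearest to this pattern by Euclidean distance were CREM (0.226), SNORD3G (0.271), VWA3B (0.298), RNU6-2 (0.302) and IFNW1 (0.345). SNORD3G and RNU6-2 belong to multicopy families, so that their tags may not be placed uniquely, and 4 groups give only 3 differences to match.

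A window of MX1 went against the direction of the GBP windows. MX1 +157 rose in WT cells from 1.02 and 0.539 CPM to 7.46 and 4.27 CPM (log2 fold change 2.92 ± 0.38, edgeR adjusted p = 2.2e-08), whereas in USP18-/- cells it held 1.04 and 0.763 CPM untreated and 1.93 and 0.926 CPM with IFNα (0.66 ± 0.45). The effects differed by -2.26 ± 0.63 (edgeR adjusted p = 0.0074), on few tags.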
